A study of Mus musculus with 12 samples.

Results

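The 80 genes described here encode the proteins of the cytosolic ribosome of the mouse, together with a few close paralogues. They were chosen by symbol: Rpl or Rps followed by a number, Rplp0 to Rplp2 and Rpsa, leaving out S6 kinases, Rps27l, pseudogene symbols and names ending in rt. The array annotation tied 457 of the 35399 transcript clusters (sets of probes summarised as 1 transcript) to these genes, up to 41 for a single gene (Rpl21). The cluster with the highest mean over all arrays stood for each gene, which left 79 clusters because Rpl32 and Rpl32l share theirs. Of these members 47 carried 1 symbol and 32 several, such as a pseudogene, a predicted gene or another named gene beside the ribosomal protein. They comprise 41 large subunit genes, 26 small subunit genes, the 3 stalk genes, and 9 paralogues and other genes whose symbols the rule admits.

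The levels come from NIH3T3, an established mouse fibroblast line, exposed to difluoromethylornithine (DFMO). DFMO inhibits ornithine decarboxylase, an enzyme in the synthesis of the polyamines (putrescine, spermidine and spermine). The arrays do not measure polyamines. The groups were untreated cells (3 arrays, 0 h) and cells in 1 mM DFMO for 12 h (2 arrays), 24 h (3 arrays), 48 h (2 arrays) and 96 h (2 arrays). All were the G1 fraction obtained by sorting, and the labels call the arrays biological replicates. Since no untreated culture of a later hour was analysed here, exposure to the drug and hours in culture cannot be told apart.

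Ribosomal proteins coat and fold the ribosomal RNA of the large and small subunits. Their genes are expressed at very high levels in growing cells, and their transcripts begin with a stretch of pyrimidines, the terminal oligopyrimidine (TOP) motif, through which the kinase complex mTORC1 adjusts how strongly they are translated. Polyamines bind RNA and ribosomes, and spermidine supplies the hypusine residue of the translation factor Eif5a. Arrays of total RNA record the amount of transcript, not its translation.

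Over the 35399 clusters, medians per array ran from 4.13 to 4.2 on the log2 scale, and the correlation r between replicates was 0.99 to 0.996. As a check of the label, 14 fibroblast markers had array medians of 8.9 to 9.47, although Postn and, before treatment, Dcn were near the floor of the scale. The 17 leukocyte markers had medians of 3.6 to 3.7 and the 18 epithelial and endothelial markers of 3.47 to 3.58. At 96 h limma called 14.9% of all clusters. Of the fibroblast markers 2 were called higher and 4 lower (42.9%). Of the leukocyte markers 1 was called higher and 0 lower (5.88%). Of the epithelial and endothelial markers 2 were called higher and 1 lower (16.7%). Among the markers called, Dcn rose by 4.37 log2 units (adjusted p = 3e-05), Lyz2 rose by 1.90 (adjusted p = 0.00276) and Cdh1 rose by 0.58 (adjusted p = 0.000548). Thy1 fell by 2.35 (adjusted p = 2.56e-06) and Krt14 fell by 1.82 (adjusted p = 0.000951). In a bulk sample, fewer cells of a type and less RNA per cell cannot be told apart, and the part of these shifts in the results below was not tested. An earlier look at these data had found that untreated replicate 3, 12 h replicate 2 and 24 h replicate 3 deviate together. This shows in the members: the Rpl39 cluster (also listing Gm32211) read 10.59, 10.70 and 10.61 on those arrays against 10.76 to 11.34 on the other untreated, 12 h and 24 h arrays. Untreated replicate 3 was the lowest untreated array for 49 of 79 members and the highest for 23.

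The members were among the brightest transcripts measured. Their median mean level was 11.05 log2 units, and 42 of the 79 lay over 11, where 1.67% of all clusters lie. Only 5 lay under 6: Rpl3l, Rpl10l and Rps4l at 3.37 to 3.44, Rps23rg1 at 3.74, and the stalk gene Rplp2 at 5.19. Rpl3l and Rpl10l are known chiefly from muscle and testis. The highest value in the table is 13.18, and the brightest members lie near it.

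Promoter sequences were available from RefSeq (GRCm38.p6) for 65 of the 80 symbols, with 76 start sites. The following windows belong to members whose transcripts changed and show the sequence around their annotated start sites. Each covers 50 bases before the annotated start site and 20 from it onward, on the gene's own strand. Capitals mark matches to CTTTCC, to the YY1 core AAGATGG, to the ETS factor core CCGGAAG or to the letters TATAAA on either strand, and any run of at least 5 pyrimidines that starts with C at the start site. Where matches overlap or touch, the capitals run together.
Rps27 (chr3:90213629-90213698, minus strand): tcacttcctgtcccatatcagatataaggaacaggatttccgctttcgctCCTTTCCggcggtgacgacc
Rps10 (chr17:27635225-27635294, minus strand): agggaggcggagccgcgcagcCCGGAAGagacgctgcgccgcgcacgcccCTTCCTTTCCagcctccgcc
Rpl35 (chr2:39005112-39005181, minus strand): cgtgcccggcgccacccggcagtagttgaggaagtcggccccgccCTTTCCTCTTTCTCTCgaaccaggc
Rpl26 (chr11:68901516-68901585, plus strand): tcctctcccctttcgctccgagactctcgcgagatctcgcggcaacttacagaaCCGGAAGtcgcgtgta
Rpl22 (chr4:152325676-152325745, plus strand): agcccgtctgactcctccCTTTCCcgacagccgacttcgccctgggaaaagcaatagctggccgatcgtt
Rpl22l1 (chr3:28805458-28805527, plus strand): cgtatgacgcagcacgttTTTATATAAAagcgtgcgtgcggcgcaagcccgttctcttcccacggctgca
The Rps27, Rps10 and Rpl35 windows hold the pyrimidine run at the annotated start site, and those of Rpl26, Rpl22 and Rpl22l1 do not. Pyrimidine runs that begin at another base are not marked as such. The Rpl22l1 window holds TATAAA. For Rpl22 the table lists a second start site, which is not shown.

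Over all 76 member start sites, 14 (18.4%) began with such a run, against 2.51% of the 32851 start sites of the table and 0 of 75 for mitochondrial ribosomal protein genes. With a looser measure, a run of at least 8 pyrimidines within 20 bases of the start, chosen after the sequences were seen, the shares were 40.8% and 16.0%. Within the full windows of 250 bases before to 50 after the start, CTTTCC (which can lie inside such a run) was present in 48.7% of member windows against 26.6% of all. CCGGAAG was present in 34.2% against 8.86%, and AAGATGG in 15.8% against 6.34%. The mitochondrial ribosomal protein genes had shares of 34.7% for CCGGAAG, 17.3% for AAGATGG, 33.3% for CTTTCC and 17.3% for the looser run. The letters TATAAA occurred in 10.5% of member windows, 6.67% of mitochondrial ribosomal protein windows and 13.6% of all. A match describes the letters of a window, and the share depends on where the annotation puts the start.

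Through 24 h of DFMO no ribosomal protein transcript passed the test, and the median change stayed near 0. The median log2 change of the 79 members was 0.03 at 12 h and 0.02 at 24 h, beside -0.02 for all clusters at each time. By limma, 0 members passed an adjusted p of 0.05 at 12 h, where 0.0% of all clusters did. At 24 h the count was also 0, where 0.0311% of all clusters passed. Without adjustment 1 member at 12 h and 4 at 24 h had a p under 0.05, and the smallest adjusted p-values were 0.982 and 0.51. The step from 12 h to 24 h also called 0 members (0.0% of all clusters, 0 members at an unadjusted p under 0.05), and the smallest p-values there belonged to Rpl13a, Rpl41, Rpl7l1 and Rps19bp1. The members nearest to a call at 12 h were Rps10 (0.19), Rpl39l (0.39), Rps12 and Rps13 (0.24). Those at 24 h were Rps19bp1 (-0.39), Rps10 (0.16), Rps13 (0.28) and the Rpl15 cluster (0.16).

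At 48 h the distribution shifted upward, and a single gene passed the test. The median log2 change was 0.16, beside -0.03 for all clusters, and 57 of 79 members lay above 0 against 39.8% of all clusters. Among clusters above the median mean level, where 75 of the members lie, 48.8% lay above 0 and the median was -0.008. Without untreated replicate 3, or without all 3 arrays that deviate together, the members' median was 0.10 and 52 members lay above 0. With each array centred on its median it was 0.21 and 69 lay above 0. By limma 1 member was higher and 0 lower, a share of 1.27% where 3.1% of all clusters were called. Both 48 h arrays lay above all untreated arrays for 36 members, a pattern seen in 14.1% of all clusters, and below them for 6, a pattern seen in 25.3%. Individual changes ran from -0.50 to 0.57.

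Rps10, a protein at the head of the small subunit, was the member called at 48 h. Its untreated arrays read 11.13, 11.06 and 10.99, its 12 h arrays 11.26 and 11.24, and its 24 h arrays 11.33, 11.13 and 11.22. The 48 h arrays read 11.51 and 11.37 and the 96 h arrays 11.40 and 11.48, so the late groups lay above every untreated array. The change was 0.38 ± 0.07 (limma SE) at both times, a fold of 1.30, with an adjusted p of 0.0326 at 48 h and 0.00832 at 96 h. With the replicate number as a block the adjusted p at 48 h was 0.0507. The call at 48 h was also lost when any single untreated or 48 h array was left out, with adjusted p-values from 0.0581 to 0.256. Rps12, also of the small subunit, changed about as much at 48 h (0.40 ± 0.10) with an adjusted p of 0.0878. The Rpl37 cluster (also listing Rpl37rt) had a change of 0.30 and an adjusted p of 0.119.

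**Figure D1:**
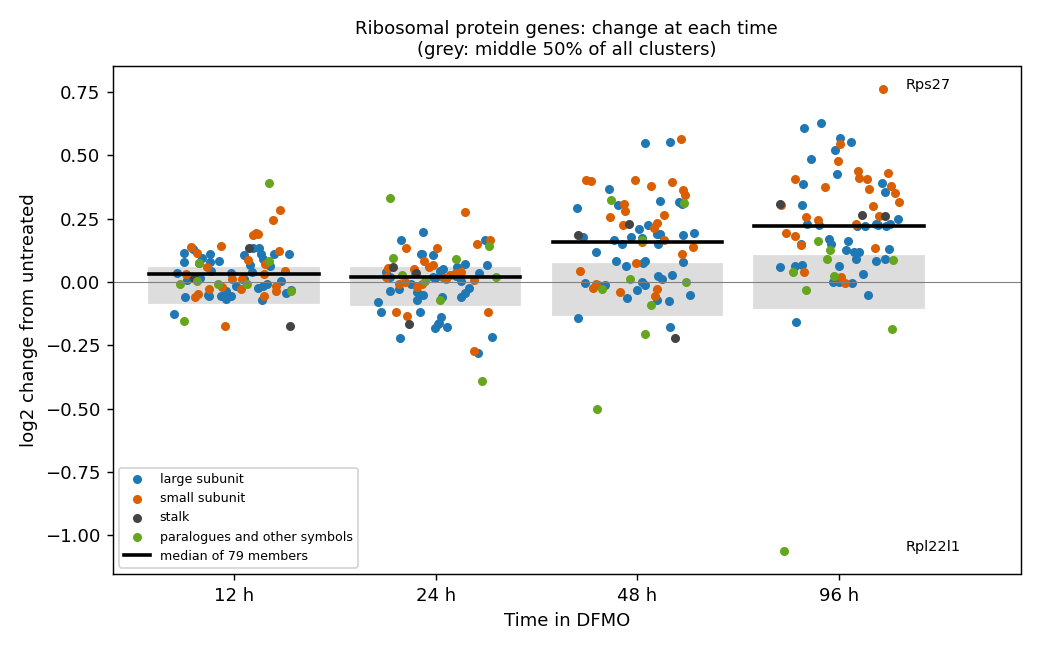
Log2 change from untreated (vertical axis, log2 units) of each of the 79 members at each time in DFMO (horizontal axis, hours), coloured by class, with a black line at the members' median and a grey box over the middle 50% of all 35399 clusters. The members' median is 0.03 and 0.02 in the early groups (12 h and 24 h), then 0.16 and 0.22 in the late ones, and Rpl22l1 (-1.06) and Rps27 (0.76) are the extremes at 96 h. The box includes clusters near the floor. For clusters above the median mean level the middle 50% at 96 h runs from -0.28 to 0.30.

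The plot of changes by time shows most members moving together by small amounts at 96 h, with Rpl22l1 alone far below 0. The median log2 change at 96 h was 0.22, a fold of 1.17, beside -0.004 for all clusters, and 71 of 79 members lay above 0 against 48.6% of all clusters. Both 96 h arrays lay above all untreated arrays for 54 members, where 20.0% of all clusters show this, and below for 2, where 19.4% do. By limma 9 members rose and 1 fell, which is 12.7% of the members where 14.9% of all clusters were called (7.77% higher and 7.12% lower). The share called was thus near the background. The middle 50% of members had changes of 0.09 to 0.36. Without 96 h replicate 2 only 1 member was called, Rpl22l1, and all 9 rises lost the call. Without 24 h replicate 2, which enters only through the shared estimate of the spread, 17 were called. Without the 3 arrays that deviate together 7 were called, not among them Rpl26, Rpl35, Rps7, Rps10 and Rps12, and the median change was 0.17. The median change stayed between 0.17 and 0.25 over all 25 alternatives run.

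By the members' median, the arrays at 96 h read 11.24 and 11.33, and those at 48 h 11.17 and 11.11. The untreated arrays read 11.03, 11.05 and 10.98, the 12 h arrays 11.10 and 11.00, and the 24 h arrays 11.10, 10.87 and 11.02. The late groups therefore lay above all untreated arrays, while the 12 h and 24 h arrays overlapped them. Quantile normalisation forces each array to the same distribution of values, so these are levels relative to all other transcripts of the array.

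Small subunit genes had a larger median change at 96 h than large subunit genes, a difference that was not tested. Of 26 small subunit genes, 25 lay above 0 with a median of 0.31, 4 rose by the test, and 23 had both 96 h arrays above all untreated arrays. Of 41 large subunit genes, 37 lay above 0 with a median of 0.17, 5 rose, and 27 had non-overlapping higher arrays. That is 15.4% and 12.2% called higher, where 7.77% of all clusters were, and 88.5% and 65.9% non-overlapping higher, where 20.0% were. None of either class fell by the test. Among members above level 6 the brightest moved least: the median change was 0.33 for the 12 members with a mean level of 6 to 10, 0.30 for the 20 between 10 and 11, 0.23 for the 22 between 11 and 11.5, and 0.11 for the 20 over 11.5. The 5 members under 6, near the floor of the scale, had a median of 0.04. Whether compression at the bright end of the array contributes to this order was not tested.

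**Figure D2:**
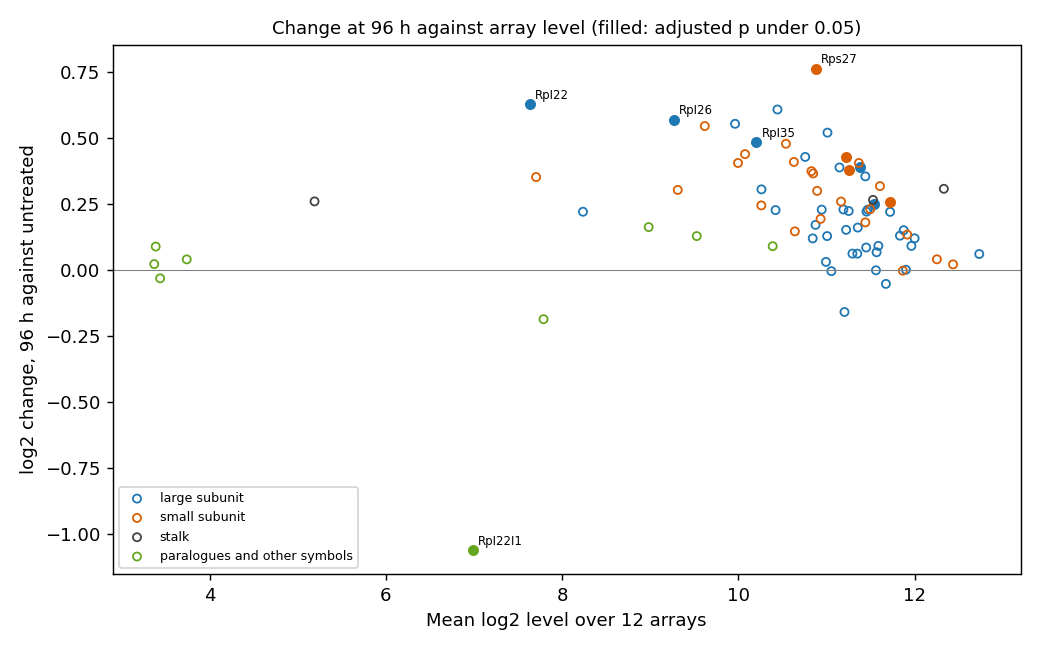
Log2 change at 96 h against untreated (vertical axis) by mean log2 level over 12 arrays (horizontal axis) for the 79 members, coloured by class; filled points have a limma adjusted p under 0.05 and 5 of them are named. Members over 11.5 cluster around a median of 0.11, those between 6 and 10 around 0.33, and Rpl22l1 lies alone at -1.06.

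The plot of change against level also shows that the called rises spread over a wide range of levels. The largest was Rps27, a zinc-binding protein of the small subunit, on a cluster that also lists Rps27rt. Its untreated arrays read 10.83, 10.68 and 10.52, its 12 h arrays 10.83 and 10.49, and its 24 h arrays 10.84, 10.74 and 10.57. The 48 h arrays read 11.14 and 11.02 and the 96 h arrays 11.32 and 11.56. Untreated, 12 h and 24 h arrays overlapped, all 48 h arrays lay above them, and the 96 h arrays lay higher still. The mean went from 10.68 ± 0.16 (SD, n = 3) to 11.44 ± 0.16 (SD, n = 2), a rise of 0.76 ± 0.13 (limma SE), or 1.70-fold, with an adjusted p of 0.00467. Without 96 h replicate 2 the adjusted p was 0.0508. At 48 h the change of 0.40 had an adjusted p of 0.167.

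Rps12 and Rps7, the latter a small subunit protein known to bind MDM2, also rose at 96 h. The Rps12 cluster, which also lists Nol11, read 11.02, 11.10 and 10.92 untreated, 11.20 and 11.21 at 12 h, 11.28, 10.94 and 11.27 at 24 h. The 48 h arrays read 11.46 and 11.35 and the 96 h arrays 11.42 and 11.46. Its late arrays lay above all others, and the change at 96 h was 0.43 ± 0.10 (limma SE, adjusted p = 0.0234). Rps7 read 11.71, 11.69 and 11.57 untreated, 11.67 and 11.79 at 48 h, and 11.87 and 11.95 at 96 h. Its 48 h arrays overlapped the untreated ones and its 96 h arrays did not, with a rise of 0.26 ± 0.06 (adjusted p = 0.0258). With the replicate block the adjusted p of Rps7 was 0.0516.

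Of the large subunit, Rpl22 rose most. Rpl22 is an RNA-binding protein that many cells can do without, and its loss is known to raise the transcript of its paralogue Rpl22l1, which can take its place. Rpl22 read 7.49, 7.50 and 7.40 in untreated cells, 7.67 and 7.23 at 12 h, 7.69, 7.31 and 7.57 at 24 h. The 48 h arrays read 7.86 and 7.70 and the 96 h arrays 8.06 and 8.12. The 12 h and 24 h arrays scattered around the untreated ones, and the 48 h and 96 h arrays lay above them. The rise was 0.63 ± 0.14 (limma SE), or 1.54-fold, with an adjusted p of 0.0147. Without either 96 h array the call was lost, with an adjusted p of up to 0.0949.

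Rpl22l1 went the other way and was the only member called lower. Its cluster, which also lists Gm15421, read 7.31, 7.17 and 7.19 untreated, 7.06 and 7.31 at 12 h, 7.24, 6.84 and 7.39 at 24 h. The 48 h arrays read 7.10 and 6.94 and the 96 h arrays 6.01 and 6.31. All arrays up to 48 h lay at 6.84 or above and both 96 h arrays at 6.31 or below. The mean went from 7.22 ± 0.07 (SD, n = 3) to 6.16 ± 0.21 (SD, n = 2), so the transcript fell by 1.06 on the log2 scale (limma SE 0.16, adjusted p = 0.002), 2.09-fold lower. The fall held in all 22 alternatives that included this cluster, with log2 changes from -1.21 to -0.91 and adjusted p-values up to 0.0248.

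**Figure D3:**
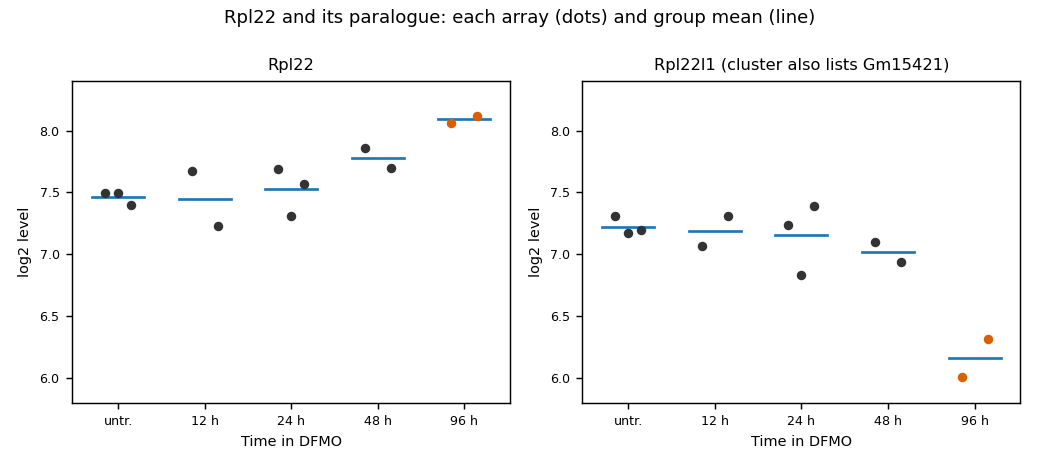
Log2 level (vertical axis, the same range in both panels) of Rpl22, left, and the Rpl22l1 cluster, right, on each of the 12 arrays (dots, 96 h in orange) with the group mean (line), by time in DFMO (horizontal axis). The 96 h arrays of Rpl22 (8.06 and 8.12) lie above all of its others, and those of Rpl22l1 (6.01 and 6.31) below all of its others.

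The plot of Rpl22 and its paralogue shows when each moved. Most of the fall of Rpl22l1 came between 48 h and 96 h, where the change was -0.86 ± 0.18 (limma SE, adjusted p = 0.0266), and the 48 h level differed from untreated by -0.20 (adjusted p = 0.555). Of the 79 members it was the 1 called between 48 h and 96 h, where 4.72% of all clusters were called. It lost the call when any single 48 h or 96 h array was left out and when only those groups entered the fit. Rpl22 changed by 0.31 ± 0.15 in the same step (adjusted p = 0.341). The next smallest p-values in this step belonged to Rpl35a (0.32, adjusted p = 0.148), Rplp1 (0.49, adjusted p = 0.118) and Rpl13a (0.35). For 37 members both 96 h arrays lay above both 48 h arrays, a pattern of 32.6% of all clusters.

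The other large subunit genes that rose were Rpl26, Rpl35, Rpl31 and Rpl32. Rpl26, Rpl35 and Rpl31 lie around the exit of the tunnel through which the growing chain leaves the ribosome. The Rpl26 cluster (also Gm15772) read 9.23, 9.07 and 8.95 untreated, 9.50 and 9.40 at 48 h, and 9.55 and 9.75 at 96 h, so its late arrays lay above the untreated ones. Its rise at 96 h was 0.57 ± 0.12 (limma SE), or 1.48-fold, with an adjusted p of 0.0134. A dimmer cluster listing Rpl26 alone had a smaller rise of 0.30, with an adjusted p of 0.0131 in a limma fit over 1-symbol clusters only. The Rpl35 cluster (also Itgam, an integrin gene of leukocytes that has a cluster of its own at 3.53 untreated and 3.61 at 96 h) read 10.19, 10.12 and 9.91 untreated and 10.49 and 10.62 at 96 h. Its rise of 0.48 ± 0.14 (adjusted p = 0.0439) was called in 9 of 23 alternatives, and with the replicate block the adjusted p was 0.0865. The Rpl31 cluster (also Rpl31-ps12 and Clpb) read 11.27, 11.15 and 11.32 untreated and 11.53 and 11.74 at 96 h, a rise of 0.39 ± 0.10 (adjusted p = 0.034) called in 17 of 23 alternatives. The shared cluster of Rpl32 and Rpl32l read 11.51, 11.48 and 11.45 untreated, 11.59 and 11.60 at 48 h, and 11.70 and 11.76 at 96 h. Its late arrays lay above all untreated ones, and its rise of 0.25 ± 0.05 had an adjusted p of 0.0128.

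**Figure D4:**
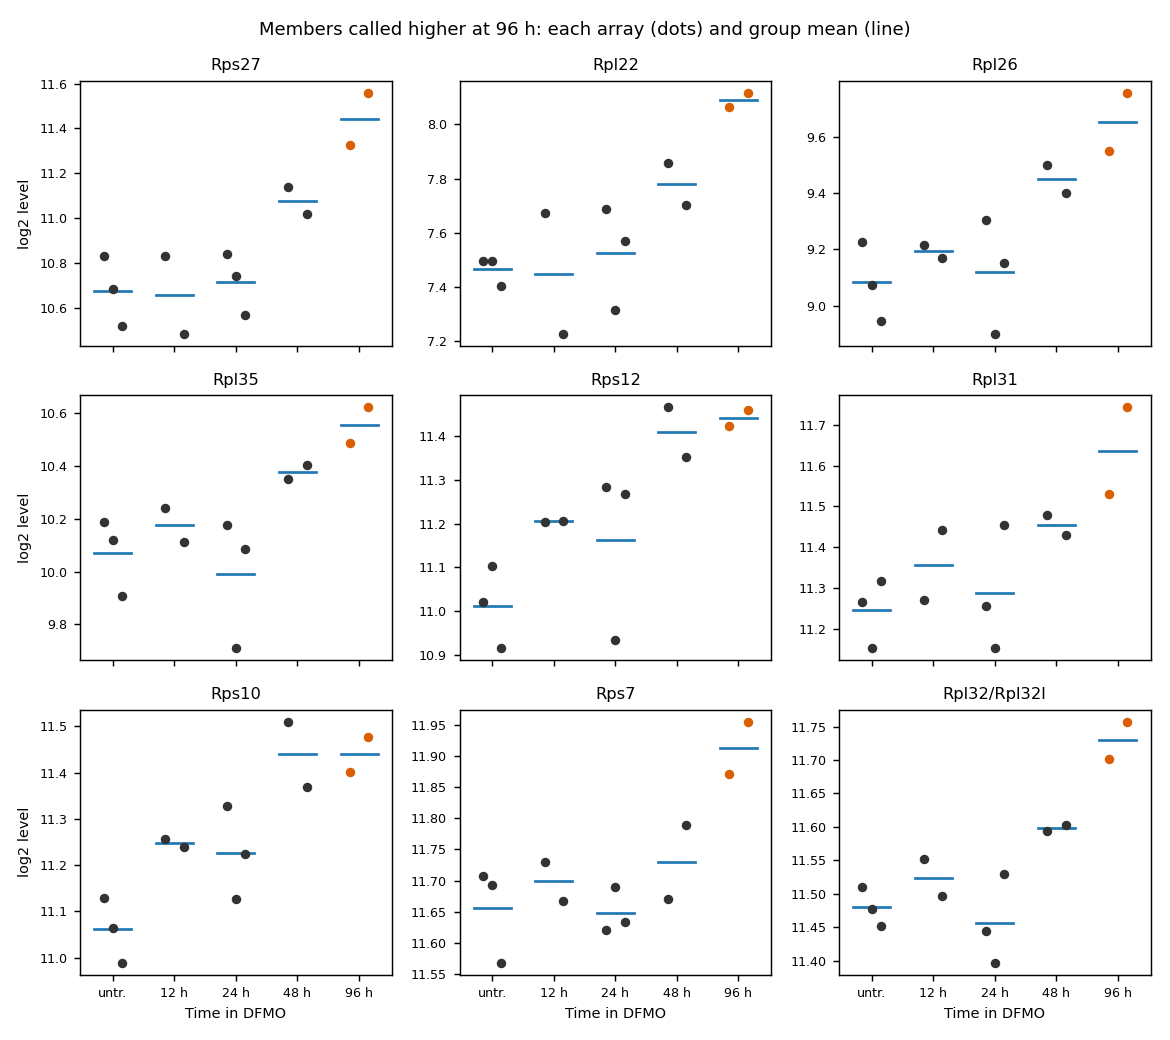
Log2 level (vertical axis, a range of its own in each panel) of the 9 members that rose at 96 h by limma, on each of the 12 arrays (dots, 96 h in orange) with the group mean (line), by time in DFMO (horizontal axis, untr. for untreated). In every panel both 96 h arrays lie above all untreated arrays, with changes from 0.25 for the Rpl32 and Rpl32l cluster to 0.76 for Rps27; the Rps27, Rpl26, Rpl35, Rps12 and Rpl31 clusters list further symbols.

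The plot of the members that rose also shows their 48 h means above the untreated ones in all 9. In 7 of 9 panels 24 h replicate 2 is the lowest 24 h array, and in Rpl26 (8.90), Rpl35 (9.71) and the Rpl32 and Rpl32l cluster (11.40) it lies below every other array. Over all members it was the lowest 24 h array for 46 and the highest for 16. By limma's F test over the 4 times, 4 members passed (10.3% of all clusters did): Rpl22l1 (adjusted p = 0.0123), Rps27 (0.0194), Rps10 (0.033) and the Rpl32 cluster (0.0488). Without either 96 h array, 0 members passed the F test. The step from 24 h to 48 h called 0 members (0.613% of all clusters, 10 members at an unadjusted p under 0.05), with Rps10 nearest at 0.21 (adjusted p = 0.376), followed by Rpl35, Rpl26 and Rps27.

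Several changes as large as these did not pass the test. The Rpl37a cluster (also Mir682) read 10.45, 10.27 and 9.90 untreated and 10.80 and 10.83 at 96 h, a change of 0.61 ± 0.21 (limma SE, adjusted p = 0.104). Rps15a, on a cluster with pseudogene symbols, had the highest change at 48 h (0.57 ± 0.27, adjusted p = 0.327). Its 24 h arrays read 10.26, 9.23 and 10.18, and 24 h replicate 2 lay below all other arrays. Rpl36, Rps21 and Rpl39 had changes at 96 h of 0.55, 0.54 and 0.52 with adjusted p-values of 0.112, 0.267 and 0.171. These members were singled out for their size after their values were seen.

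The stalk is the flexible arm of the large subunit that recruits translation factors, made of Rplp0 at its base and Rplp1 and Rplp2. All 3 genes had both 96 h arrays above all untreated arrays, a pattern of 68.4% of all members and 20.0% of all clusters. None of the 3 passed the test. Rplp0 read 12.26, 12.17 and 12.27 untreated and 12.63 and 12.45 at 96 h, a change of 0.31 ± 0.09 (limma SE, adjusted p = 0.0519). Rplp1 read 11.59, 11.73 and 11.46 untreated, 11.27 and 11.47 at 48 h, and 11.98 and 11.73 at 96 h. It was thus lower on average at 48 h (-0.22, adjusted p = 0.443) and higher at 96 h (0.26, adjusted p = 0.297). The Rplp2 cluster changed by 0.26 (adjusted p = 0.334) from a low level of 5.08.

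Rpl5, Rpl11 and Rpl23 are the proteins best known for binding MDM2, the regulator of p53, when ribosome assembly is disturbed. Their changes at 96 h were 0.13 (adjusted p = 0.448), 0.12 (adjusted p = 0.554, on a cluster also listing Brf2) and 0.22 (adjusted p = 0.0996). A second, dimmer cluster of Rpl23 was called at 96 h, with a rise of 0.44 (adjusted p = 0.0148). Rps6, the ribosomal protein phosphorylated downstream of mTORC1, read 11.88, 11.94 and 11.76 untreated and 11.89 and 11.82 at 96 h. Its groups overlapped and its change was -0.003 (limma SE 0.09, adjusted p = 0.992).

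Rpsa, a small subunit protein also known as the laminin receptor, had a change of 0.32 at 96 h (adjusted p = 0.191). Rps19, Rps24 and Rps26, genes mutated in Diamond-Blackfan anaemia, had 0.35 (adjusted p = 0.39), 0.37 (adjusted p = 0.144) and 0.04 (adjusted p = 0.864). Rps3, at the entry of the messenger RNA channel, had 0.30 (adjusted p = 0.543). Rpl10, which joins the large subunit late in its assembly, had 0.09 (adjusted p = 0.746), Rpl13a 0.17 (adjusted p = 0.437) and Rpl41, the smallest ribosomal protein, 0.23 (adjusted p = 0.174).

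The members below 0 at 96 h were few: Rpl22l1, Rps19bp1, Rpl3, Rpl15, Rpl10l, Rpl7, Rps6 and Rpl17, of which Rpl17 (on a cluster with Gm6133 and Hk1) is named after its value was seen. Apart from Rpl22l1 none passed the test, and Rpl10l, Rpl7, Rps6 and Rpl17 lay above 0 in some alternatives. Rpl3, a large subunit protein that reaches toward the peptidyl transferase centre, read 11.32, 11.32 and 11.12 untreated and 11.08 and 11.10 at 96 h, a change of -0.16 (adjusted p = 0.548) on a cluster that also lists Gm5879, Rpl3-ps1, Ralgps2 and Syngr1. Its arrays did not overlap, though untreated replicate 3 lay next to the 96 h arrays. All 6 other bright clusters of Rpl3 had changes below 0 too, from -0.16 to -0.13.

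Of the paralogues and other symbols, only Rpl22l1 was called in any comparison. Rpl39l, the paralogue of Rpl39, had its largest change at 12 h (0.39 ± 0.17, adjusted p = 0.982) and 0.16 at 96 h (adjusted p = 0.699), where Rpl39 had 0.52. The Rpl36al cluster (also Dnaaf2) had 0.09 at 96 h (adjusted p = 0.854) and the cluster of its relative Rpl36a (also Gm6525) 0.43 (adjusted p = 0.085). Rpl7l1, a relative of Rpl7, had 0.13 (adjusted p = 0.365) and Rpl7 -0.01 (adjusted p = 0.987). Rps4x had 0.40 (adjusted p = 0.127). Rpl3l, Rpl10l, Rps4l and Rps23rg1 stayed at the floor of the scale, with changes between -0.03 and 0.09. Rps19bp1, which encodes a protein that binds Rps19 and Sirt1 and is no ribosomal protein, read 8.07, 8.10 and 7.92 untreated, 7.40 and 7.65 at 48 h, and 7.99 and 7.70 at 96 h. Its 48 h arrays lay below all untreated arrays (-0.50 ± 0.13, adjusted p = 0.0848) and its 96 h arrays overlapped them.

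Because the genome holds many near-identical copies of ribosomal protein genes, probes for them can read several copies, and the other clusters of the same genes were compared with the chosen ones. Of these, 360 had a mean level over 8, on 62 genes, with 345 distinct sets of values. At 96 h 332 (92.2%) had a change above 0, 34 were called higher and 0 lower, and the median was 0.16. Over all clusters 48.6% lay above 0 and 14.9% were called (7.77% higher), so the 9.44% called here is near the background. For 59 of 62 genes the median of the other clusters had the sign of the chosen cluster. Such clusters share probes or near-identical sequence and the same 12 arrays, so they are no replicates of it.

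**Figure D5:**
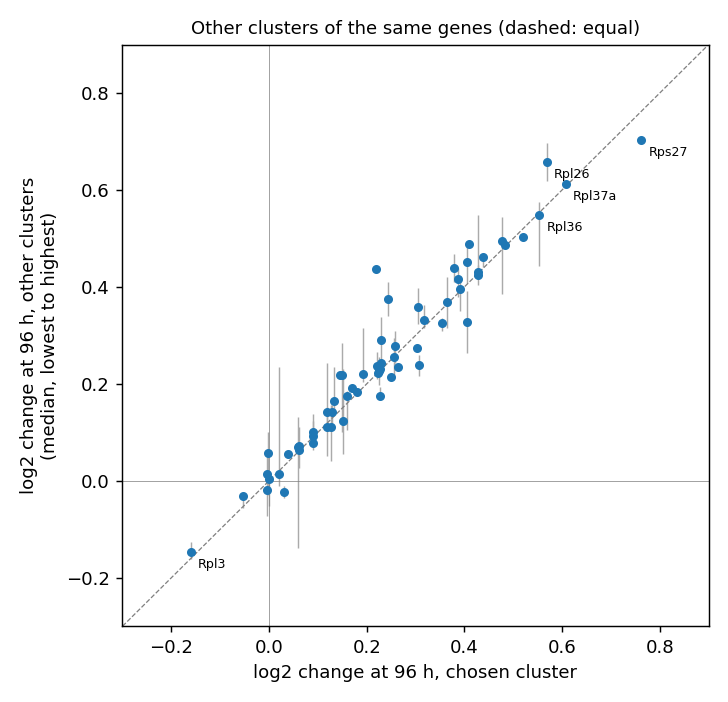
Log2 change at 96 h of the other clusters of each of 62 genes (vertical axis; dot for the median, grey bar from the lowest to the highest) against that of the chosen cluster (horizontal axis); the dashed line marks equal changes. Points lie along the line from Rpl3 (-0.16 and -0.15) to Rps27 (0.76 and 0.70).

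The plot of other clusters shows how near the copies stay to the chosen cluster. The second cluster of Rps27 rose by 0.70 at 96 h, those of Rpl26 by 0.62 and 0.70, and both further clusters of Rps10 were called, with a median change of 0.44. For Rps12, 8 of 17 others were called, and for Rpl31 4 of 7. Further genes had another cluster called higher although the chosen one was not: Rpl23, Rpl35a (5 of 10), Rpl38 (3 of 3), Rps25 (1 of 5) and Rps28 (3 of 6), the last 3 of them named after their values were seen. Several of the called clusters of Rpl35a hold the same values, as do some of those of Rps28, so these are not separate measurements. Rpl22 and Rpl22l1 had no other cluster over a mean level of 8.

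By the pyrimidine run at the start site, 13 members with it had a median log2 change of 0.30 at 96 h (range -0.05 to 0.76) and 51 members without it 0.22 (range -1.06 to 0.63). These ranges overlap, and no test was made. Of the genes that changed, Rps27, Rps10 and Rpl35 have the run at the annotated start and Rpl22, Rpl26, Rps12, Rpl31, Rps7 and Rpl22l1 do not. The run was read only from the annotated base, so a start placed a few bases off would miss it. Its absence here therefore does not show that a transcript lacks a TOP motif. Members without a promoter in the table are left out here. The shared cluster of Rpl32 and Rpl32l, which also rose, is left out too, because its joined name was not matched to a promoter.

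Mitochondrial ribosomal protein genes, the family most alike in function, had calls in both directions at 96 h. Of 77 measured through a cluster of 1 symbol, 9 were higher and 9 lower by limma, 11.7% each where 7.77% of all clusters were higher and 7.12% lower, with a median change of -0.05. At 12 h and 48 h their medians were 0.11 and 0.10. Mrps21 rose by 1.07 (adjusted p = 0.000238), while Mrps9 fell by 0.62 (adjusted p = 0.00343) and Mrpl3 fell by 0.46 (adjusted p = 0.00513). The difference between the families was not tested.

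Translation factors and other transcripts with a TOP motif also split by direction. Of 22 measured, 4 rose and 6 fell at 96 h (45.5% called, where 14.9% of all clusters were), with a median of -0.05. Eif4a2, a helicase of the cap-binding complex, rose by 1.39 (adjusted p = 0.000102) and was already higher at 48 h (0.90, adjusted p = 0.00812). Nap1l1, a histone chaperone, fell by 0.83 (adjusted p = 0.00125), Ipo5, an importin, fell by 0.55 (adjusted p = 0.00474), and Eif3l fell by 0.49 (adjusted p = 0.00277). Of the ribosomal proteins under other names, Fau and Rps27l were measured, and neither changed by the test at any time (0.02 and 0.15 at 96 h).

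Genes that build ribosomes changed in both directions. Of 30 chaperones of ribosomal proteins and late assembly factors, 7 rose and 3 fell at 96 h (33.3% called, where 14.9% of all clusters were), and 4 rose at 48 h (13.3%, where 3.1% were). Sbds, which helps release large subunits for translation, rose by 0.94 at 96 h (adjusted p = 5.85e-05). Mdn1, which remodels large subunit precursors, rose by 0.86 (adjusted p = 0.000321), Tsr2, the chaperone of Rps26, by 0.60 (adjusted p = 0.00395), and Bccip, the chaperone of Rpl23, by 0.51 (adjusted p = 0.0116). Of 24 genes for the transcription of ribosomal RNA, 3 rose and 5 fell at 96 h (33.3% called, against the same 14.9%) and 2 fell at 48 h (8.33%, against 3.1%). Ubtf, which activates RNA polymerase I, fell by 0.57 (adjusted p = 0.000432), and Gtf3a fell by 1.08 (adjusted p = 0.000187). The RNA polymerase III subunits Polr3e and Polr3g fell by 0.59 (adjusted p = 0.00732) and by 0.79 (adjusted p = 0.0153).

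Of 20 genes of the mTORC1 pathway and its TOP regulators, 6 rose and 3 fell at 96 h (45.0% called, where 14.9% of all clusters were), with a median of 0.04, and 0 were called at 48 h, where 6 had an unadjusted p under 0.05. Tsc1 and Tsc2, whose product complex restrains mTORC1, rose by 0.95 (adjusted p = 0.00159) and 0.71 (adjusted p = 0.00965). Mlst8, a subunit of mTORC1, rose by 0.40 (adjusted p = 0.00978), and Tia1, an RNA-binding protein that can hold back TOP transcripts, rose by 0.57 (adjusted p = 0.00394). Over all measured genes of these ribosome, translation and mTORC1 lists, changes at 96 h ran from -1.08 (Gtf3a) to 1.39 (Eif4a2). The 79 ribosomal protein members ran from -1.06 (Rpl22l1) to 0.76 (Rps27), and 78 of them lay at -0.19 or above. The difference in spread was not tested.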

How the data were processed

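The members and gene lists were chosen with earlier results of these data known. The authors deposited 1 table of log2 values for 12 Affymetrix MoGene 1.0 ST arrays. Per the submitters' processing notes, RMA (background correction, quantile normalisation, summary of probes) and Partek were used, with no versions given. No array coordinates are used, since a build for them is not given here. A global shift of all transcripts would be hidden by quantile normalisation, background remains in low values, and folds of very bright clusters may be understated. Per the labels' protocols, cells received the drug on the day after plating, and total RNA was labelled with a whole-transcript kit. 0 columns of values lacked a sample.

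Symbols came from the platform annotation: 21789 of the 35399 clusters had 1 symbol, 1621 several and 11989 none. All 80 member symbols were found in the RefSeq table (GRCm38.p6). Related genes were read only from clusters of 1 symbol. The lists were translation factors and other TOP transcripts, chaperones and late assembly, ribosomal RNA transcription, mTORC1 and TOP regulators, mitochondrial ribosomal proteins, ribosomal proteins under other names, and markers of fibroblasts, leukocytes, and epithelium and endothelium.

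The limma package 3.58.1 (R 4.3.3) fitted 1 mean per group to all 12 arrays and all clusters, with eBayes at its defaults. The two-sided p-values were adjusted by Benjamini and Hochberg over all 35399 clusters, and a call means an adjusted p under 0.05. The script was tested on simulated data. The number of arrays limits the precision. The alternatives changed the scaling, the filter, the choice of cluster, the spread model, array weights, the replicate block and each array in turn. Figures were drawn with matplotlib 3.10.9 (Python 3.11.15, pandas 2.3.3).

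The genes named were, per comparison, up to 8 called rises and falls with non-overlapping arrays or, with under 4 calls, the 4 smallest p-values, the 10 smallest F test p-values, fixed members by role and every paralogue, and up to 4 genes of each related list. Others are marked where they appear. Pairing by replicate number was checked on each array's deviation from its group mean: same-number pairs of untreated and 24 h arrays correlated with r of 0.136, 0.288 and 0.492 over all clusters, above the 0.1 asked for. The unlike pair of untreated replicate 1 and 24 h replicate 2 reached 0.173, and the other groups hold 2 numbers each, too few for this check.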

Additional observations from a re-analysis of the deposited data

Results flagged for a closer look

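The step of the Rpl22l1 cluster (also listing Gm15421) from 48 h to 96 h stood apart because the change from untreated cells differed between these times by limma's test of the difference. The log2 difference was -0.86 (adjusted p = 0.0266), with 48 h arrays at 7.10 and 6.94 and 96 h arrays at 6.01 and 6.31. No group held enough arrays for a check of single outlying arrays.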

How the results depend on the processing

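With 2 or 3 arrays per group the counts of called members moved easily, while the median changes at all 4 times stayed within the spread between replicates in all 25 alternatives, and no called change of a named member reversed. The medians ran from -0.02 to 0.08 at 12 h and from -0.03 to 0.06 at 24 h. At 48 h they ran from 0.10 to 0.21. At 48 h 1 member was called. This became 0 with only clusters above the median level, with only the groups compared and without the 3 arrays that deviated together, 2 with those arrays as a block (chosen after seeing the data) and 3 with array weights. Leaving out each array in turn gave 0 to 2. At 96 h 10 were called, 3 when only members of 1 symbol were kept, and 1 (without 96 h replicate 2) to 17 (without 24 h replicate 2) when each array was left out. For 96 h against 48 h the count of 1 became 0 for genes or members of 1 symbol, without paralogues and with only the groups compared. It became 2 with the mean of all clusters of a gene, and 2 without the 3 arrays, and 0 to 3 without each array. The F test's 4 became 2 for genes with a cluster of 1 symbol, 1 for members of 1 symbol, and 0 to 7 without each array. Where an arm was left with 1 array, that array is assumed to vary like the other groups. The causes were not tested, beyond fewer members or fewer arrays where a setting leaves them out.

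With the replicate number as a block, the counts were 0 at 12 h and 24 h, 1 at 48 h, 13 at 96 h and 2 for 96 h against 48 h, and the F test called 4. The block ended the calls of Rps10 at 48 h and of Rpl35 and Rps7 at 96 h and no other call of a named member. Signal limits the floor members (Rpl3l, Rpl10l, Rps4l and Rps23rg1), where any change could be understated.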
